A study of Homo sapiens with 31 samples.

Results

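The 10 genes described here encode the core machinery that makes and uses microRNAs: DROSHA, DGCR8, XPO5, DICER1, TARBP2, AGO1, AGO2, AGO3, AGO4 and TNRC6A. They were chosen by name for their role in the pathway, not by a measured value, but with earlier results of these data known. All 10 were found among the 58037 genes of the steady-state tables and the 43682 genes of the actinomycin D tables. The cells were labelled PANC-1, an established human pancreatic cancer line, and either KHSRP knockout (KO) or NC with a wild-type genotype. Without actinomycin D there were 3 KO and 3 NC libraries (the steady state), from cells with no treatment named in the labels. The second set held cells labelled with actinomycin D, a blocker of transcription, for 0, 2, 4, 6 or 8 h, with 2 libraries for each genotype label and time (20 libraries in all). The labels do not say whether the knockout cells are 1 clone or a pool, nor whether the replicate libraries were grown apart. The p-values below therefore speak of the variation among the deposited libraries alone, and that variation may be technical. Per the design text, the first set served to look for how KHSRP acts in tumor progression and the second to measure messenger RNA stability.

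A primary microRNA transcript is cut in the nucleus by the Microprocessor, in which DROSHA is the ribonuclease and DGCR8 its RNA-binding partner. The resulting hairpin is exported by exportin-5 (XPO5) and cut again in the cytoplasm by DICER1, which works with the double-stranded RNA binding protein TARBP2. An Argonaute protein (AGO1 to AGO4) then holds the mature strand, and TNRC6A, also known as GW182, joins the Argonaute to the deadenylases that silence the target. KHSRP, the gene labelled as knocked out in the KO cells, encodes an RNA-binding protein. That protein is known to bind the terminal loop of precursors such as let-7 and to promote their cutting by DROSHA and DICER1. The libraries carry the label polyA RNA, so the values below are messenger RNA levels of the machinery. Mature microRNAs were not measured in them.

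The let-7a-1 hairpin and 4 mature microRNAs are printed because they tie KHSRP and the machinery to the RNAs they handle. The hairpin (chr9:94175957-94176036, GRCh38.p14, plus strand) has its mature arms in capitals. The 29 bases between the arms are the terminal loop and its flanks, and they hold 2 runs of GGG, a kind of sequence that KHSRP is known to bind. miR-3618, miR-1306-5p and miR-1306-3p are encoded in exons of DGCR8 itself, on its own strand. In these mature sequences, taken from RefSeq like the hairpin, capitals mark the seed, bases 2 to 8 from the 5′ end, which pairs with targets.
MIRLET7A1 hairpin: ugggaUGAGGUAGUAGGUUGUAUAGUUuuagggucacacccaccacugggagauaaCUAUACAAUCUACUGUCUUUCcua
hsa-let-7a-5p: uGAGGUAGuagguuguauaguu
hsa-miR-3618: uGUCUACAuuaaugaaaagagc
hsa-miR-1306-5p: cCACCUCCccugcaaacgucca
hsa-miR-1306-3p: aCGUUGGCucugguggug
The microRNA gene entries MIR3618, MIR1306 and MIRLET7A1 were listed at 0 counts in all 20 actinomycin D libraries. DGCR8, the host of the first 2, had 420 to 1267 counts there. It shares exon positions with both entries on the same strand, and how reads of the overlap were assigned is not stated.

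AGO4, AGO1 and AGO3 lie next to each other in this order on chromosome 1, all on the plus strand (hg19, 264865 bases from the start of AGO4 to the end of AGO3). The gap from AGO4 to AGO1 is 11870 bases and that from AGO1 to AGO3 is 572 bases. Their promoters are printed because the 3 genes were higher together in the actinomycin D set, as described further on. Each stretch is the 250 bases before the annotated start (RefSeq, GRCh38.p14, plus strand): chr1:35807766-35808015 for AGO4, chr1:35882959-35883208 for AGO1 and chr1:35930855-35931104 for AGO3. Capitals mark the GC box, GGGCGG on either strand (CCGCCC as printed here on the other strand).
AGO4 promoter: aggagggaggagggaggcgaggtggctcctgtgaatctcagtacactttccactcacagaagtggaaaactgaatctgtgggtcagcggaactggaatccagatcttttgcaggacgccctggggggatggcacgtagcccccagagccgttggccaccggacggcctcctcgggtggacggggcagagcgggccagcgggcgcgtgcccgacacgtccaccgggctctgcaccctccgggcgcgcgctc
AGO1 promoter: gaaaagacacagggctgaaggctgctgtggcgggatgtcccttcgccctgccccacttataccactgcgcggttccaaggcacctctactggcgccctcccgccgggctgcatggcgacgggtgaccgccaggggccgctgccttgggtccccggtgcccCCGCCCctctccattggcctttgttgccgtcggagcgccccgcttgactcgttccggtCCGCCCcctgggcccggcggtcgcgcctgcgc
AGO3 promoter: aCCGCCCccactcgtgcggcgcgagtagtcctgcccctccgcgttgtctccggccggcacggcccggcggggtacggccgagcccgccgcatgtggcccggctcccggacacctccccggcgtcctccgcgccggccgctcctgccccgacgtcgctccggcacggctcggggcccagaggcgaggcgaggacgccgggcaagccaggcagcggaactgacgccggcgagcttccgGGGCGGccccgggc
The GC box stands 2 times in the AGO1 stretch, 2 times in the AGO3 stretch and 0 times in that of AGO4, and 42.6% of 35116 promoter stretches of this length hold it. The 3 stretches hold 20 (AGO4), 25 (AGO1) and 41 (AGO3) CpG pairs, against a median of 11 over all promoters. Their GC content is 66.4%, 71.6% and 80%, against a median of 58.0%. These matches describe letters, not binding.

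The steady-state libraries had totals of 33706180 to 43278137 counts, and those of the actinomycin D set 19177934 to 25768060. Steady-state KO replicate 1 stood apart from KO replicates 2 and 3 (chi-square per degree of freedom 42.8 and 26.6, against 11.3 between the latter). Without it 10150 genes passed in the steady state, against 8726 with it and 6725 to 8237 without any 1 other library, and 3 members were called higher and 4 lower with and without it. Levels are given as CPM, counts scaled to a common library total with TMM factors. KHSRP stood at 10.6, 9.89 and 9.49 CPM in KO replicates 1 to 3 of the steady state and at 64.4, 65.7 and 64.9 CPM in NC, a log2 change of -2.70 (SE 0.08, edgeR adjusted p = 4.52e-07). In the actinomycin D set its lowest, median and highest CPM were 134, 149 and 156 over the 10 KO-labelled libraries and 375, 439 and 460 over the 10 NC-labelled ones. The ductal keratins and EPCAM (5 of 5 markers at a mean of 1 CPM or more) were present in both steady-state groups and in the KO-labelled actinomycin D libraries, and 3 of 5 were present in the NC-labelled ones. Single genes of this list differed widely between the actinomycin D labels, in opposite directions. KRT19 had 7608 to 10958 counts under the KO label and 0 to 15 under the NC label, and KRT7 had 191 to 378 and 11972 to 20288. In the 3 steady-state NC libraries KRT19 had 10994 to 14463 counts and KRT7 133 to 156, so the NC groups of the 2 sets differed in both genes. Markers of immune cells summed to 114 to 249 CPM in the 10 KO-labelled and 10.04 to 14.8 CPM in the 10 NC-labelled actinomycin D libraries (2 and 1 of 5 at a mean of 1 CPM or more), with PTPRC at 0 in all KO-labelled and CD3E at 0 in all NC-labelled ones. Most of this sum was the single gene CD68, at 2830 to 5348 counts under the KO label and 212 to 355 under the NC label. CD14 had 45 to 104 and 2 to 23 counts. Of the fibroblast markers, COL1A1 had a median of 40.4 CPM under the KO label and 9.02 under the NC label, and PDGFRB 0.182 and 22.8 (list sums of 24.8 to 52.3 and 27.6 to 36.3 CPM, 1 and 2 of 5 at 1 CPM or more). Of the endothelial markers, KDR had a median of 9.91 CPM under the KO label and 0 counts in all NC-labelled libraries, and CDH5 had 0 and 2.53 (list sums of 7.47 to 11.3 and 2.20 to 4.58 CPM). In the steady state the fibroblast and endothelial lists summed to at most 6.28 CPM in any library. The 2 fibroblast markers tested there were higher in KO. The immune list summed to 93.3 to 119 CPM in KO and 64.5 to 67.5 CPM in NC of the steady state. Most of it was CD68, at 89.6 to 114 CPM in KO and 60.4 to 63.0 CPM in NC. Acinar and endocrine markers summed to at most 0.410 CPM in any library. PANC-1 is known to have lost CDKN2A. This gene had 0 counts in all 10 KO-labelled actinomycin D libraries and at most 0.172 CPM in the steady state, but 125 to 247 CPM in the 10 NC-labelled actinomycin D libraries. The part of these cell type markers in the results was not tested. The effect of KHSRP loss and other differences between the cells behind these labels therefore cannot be told apart in that set, and its groups are called KO-labelled and NC-labelled below. In bulk RNA, fewer expressing cells and less RNA per cell cannot be told apart either.

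In the steady state, DICER1 was the member with the largest change in reads per gene, while per length that of AGO2 was larger (1.52 against -1.26 on the log2 scale). In reads per gene DICER1 was lower in KO, together with AGO3, TNRC6A and DROSHA, whereas XPO5 and TARBP2 were higher, and AGO2 was higher by a small margin. In edgeR's quasi-likelihood test with Benjamini-Hochberg adjustment over 17240 genes, 4 members passed at 0.05 as lower and 3 as higher in KO. Over all genes 26.3% were called lower and 24.4% higher, so 7 of 10 stands against a background of 50.6%. The median log2 change of the members was 0.14, against 0.02 over all genes tested.

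**Figure D1:**
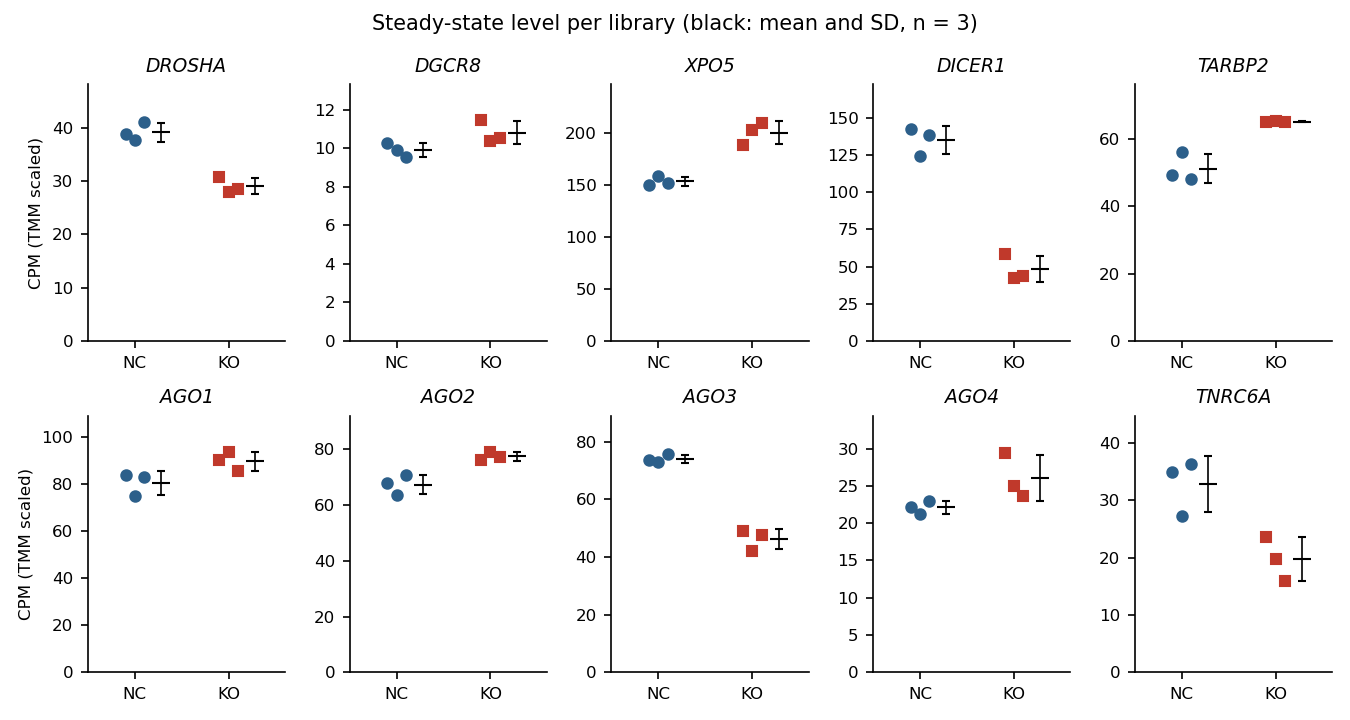
Level of each of the 10 genes in the 6 steady-state libraries, as CPM after TMM scaling (vertical axes from 0), with NC in blue circles, KO in red squares and the mean and SD of each group in black. DICER1 falls from 124 to 143 CPM in NC to 42.6 to 58.7 CPM in KO, the widest separation of the 10.

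The Microprocessor pair moved unequally. DROSHA (ENSG00000113360.16, hg19 chromosome 5, 31400601 to 31532200, minus strand) stood at 30.6, 27.8 and 28.5 CPM in KO replicates 1 to 3 and at 38.7, 37.6 and 41.1 CPM in NC. All KO libraries were below all NC libraries, and the log2 change was -0.43 (SE 0.08, edgeR adjusted p = 0.00168). DGCR8 (ENSG00000128191.14, chromosome 22, 20067764 to 20099395, plus strand), the partner that holds the primary transcript, stood at 11.5, 10.4 and 10.5 CPM in KO and at 10.3, 9.92 and 9.56 CPM in NC. Its groups were separated by a narrow gap, and its log2 change of 0.12 (SE 0.09) did not pass (edgeR adjusted p = 0.293).

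XPO5 (ENSG00000124571.17, chromosome 6, 43490072 to 43543775, minus strand), the exporter of precursor hairpins, was the most abundant member by CPM. It stood at 188, 203 and 209 CPM in KO and at 150.04, 158 and 151 CPM in NC. Every KO library was above every NC library, with a log2 change of 0.38 (SE 0.07, edgeR adjusted p = 0.00204). XPO5 shares exon positions with POLR1C, which lies on the other strand. The use of strand in counting is not stated in these sources, so reads of the overlap cannot be assigned with certainty.

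DICER1 (ENSG00000100697.14, chromosome 14, 95552565 to 95624347, minus strand), the ribonuclease that releases the mature duplex, stood at 58.7, 42.6 and 43.8 CPM in KO and at 143, 124 and 138 CPM in NC. The highest KO library was below the lowest NC library by more than the spread within either group. The log2 change was -1.48 (SE 0.13, edgeR adjusted p = 3.61e-05), and 711 of 17240 genes ranked at or above it in absolute size. TARBP2 (ENSG00000139546.10, chromosome 12, 53894707 to 53900215, plus strand), the partner of DICER1, went the other way: 65.1, 65.2 and 65.0 CPM in KO against 49.3, 55.9 and 48.0 CPM in NC. Its groups did not overlap, and its log2 change was 0.35 (SE 0.08, edgeR adjusted p = 0.00589).

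Among the Argonautes, AGO3 was lower in KO in reads per gene and the others lay slightly higher. With the transcript length of each library taken into account, AGO3 stood at 0.18 and AGO2 at 1.52 on the log2 scale, as described further on. AGO3 (ENSG00000126070.19, chromosome 1, 36396706 to 36538101, plus strand) stood at 49.1, 42.3 and 47.6 CPM in KO and at 73.7, 72.8 and 75.7 CPM in NC, a log2 change of -0.68 (SE 0.08, edgeR adjusted p = 0.000176). AGO2 (ENSG00000123908.11, chromosome 8, 141530255 to 141645732, minus strand), the Argonaute best known for cutting its targets, stood at 76.0, 79.2 and 77.2 CPM in KO and at 67.8, 63.6 and 70.6 CPM in NC. Its log2 change of 0.20 (SE 0.08) passed narrowly (edgeR adjusted p = 0.0479), and the call was lost with DESeq2 (adjusted p = 0.0594), with DESeq2-type size factors in edgeR (0.0697), with no count filter (0.143), with the replicate number as a block (0.0868) and when any 1 library other than KO replicate 1 was left out (0.0690 to 0.144). AGO2 also shares exon positions with ERICD on the other strand.

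AGO1 (ENSG00000092847.11, chromosome 1, 36335362 to 36396133, plus strand) had 90.2, 93.5 and 85.4 CPM in KO and 83.8, 74.8 and 83.0 CPM in NC. AGO4 (ENSG00000134698.10, chromosome 1, 36273237 to 36323491, plus strand) had 29.5, 24.9 and 23.7 CPM in KO and 22.1, 21.3 and 23.0 CPM in NC. Their log2 changes of 0.16 (SE 0.08) and 0.23 (SE 0.10) did not pass (edgeR adjusted p = 0.133 and 0.0727), although the groups of neither gene overlapped. Of 2 neighbours 572 bases apart, AGO3 thus passed in reads per gene as lower while AGO1 lay above its NC level without passing.

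TNRC6A (ENSG00000090905.18, chromosome 16, 24621526 to 24837539, plus strand), the scaffold of silencing, stood at 23.6, 19.8 and 15.9 CPM in KO and at 34.9, 27.2 and 36.3 CPM in NC. Its log2 change was -0.73 (SE 0.15, edgeR adjusted p = 0.00322), with the widest relative spread of the 10 within both groups. Over all 10 members the KO and NC libraries did not overlap, 6 being higher and 4 lower in KO. This count has a background of 60% of all genes (30.4% higher, 29.6% lower).

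Transcript length moved with the steady-state changes. Among the 4310 genes with the longest transcripts, 17.4% were called higher and 46.8% lower, against 25.1% and 12.3% among the 4310 with the shortest. DICER1, XPO5, AGO1, AGO2, AGO4 and TNRC6A fall in the longest class. With a smooth length trend removed from each library, the log2 change of DICER1 was -0.91 and that of TNRC6A -0.41, both still passing, as were DROSHA (-0.49) and AGO3 (-0.53) below NC. In the same fit AGO1 (0.87), AGO4 (0.64) and DGCR8 (0.28) passed as higher, beside AGO2 (0.68), XPO5 (0.73) and TARBP2 (0.26), so 6 members were called higher. Over all genes 4475 of 17240 were called higher in that fit and 4173 lower. The part of RNA quality in this trend was not tested.

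The transcript length that RSEM estimated for a gene in each library, weighted over its isoforms, also differed for part of the members. For AGO2 it was 4064, 3377 and 3542 bases in KO and 9039, 8731 and 9106 bases in NC. This is a log2 ratio of effective lengths of -1.35, and 0.0986% of 17234 genes had a lower ratio (the median gene was at -0.004). For AGO3 it was 2525, 2089 and 2292 bases in KO and 4395, 4075 and 3859 bases in NC, a log2 ratio of -0.91, with 0.569% of genes lower. DICER1 (6518, 7934 and 7421 against 8755, 8308 and 8612 bases) and AGO1 (8949, 10648 and 9504 against 11097, 11235 and 11142 bases) were also shorter in every KO library. In XPO5 the KO lengths were above the NC lengths (4975, 5026 and 5023 against 4758, 4735 and 4836 bases). Thus 4 members had shorter, non-overlapping lengths in KO (13.8% of all genes did) and 1 had longer ones (5.73% of all genes did). These lengths are estimates from isoform assignment of the reads, and no isoform was measured directly.

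**Figure D2:**
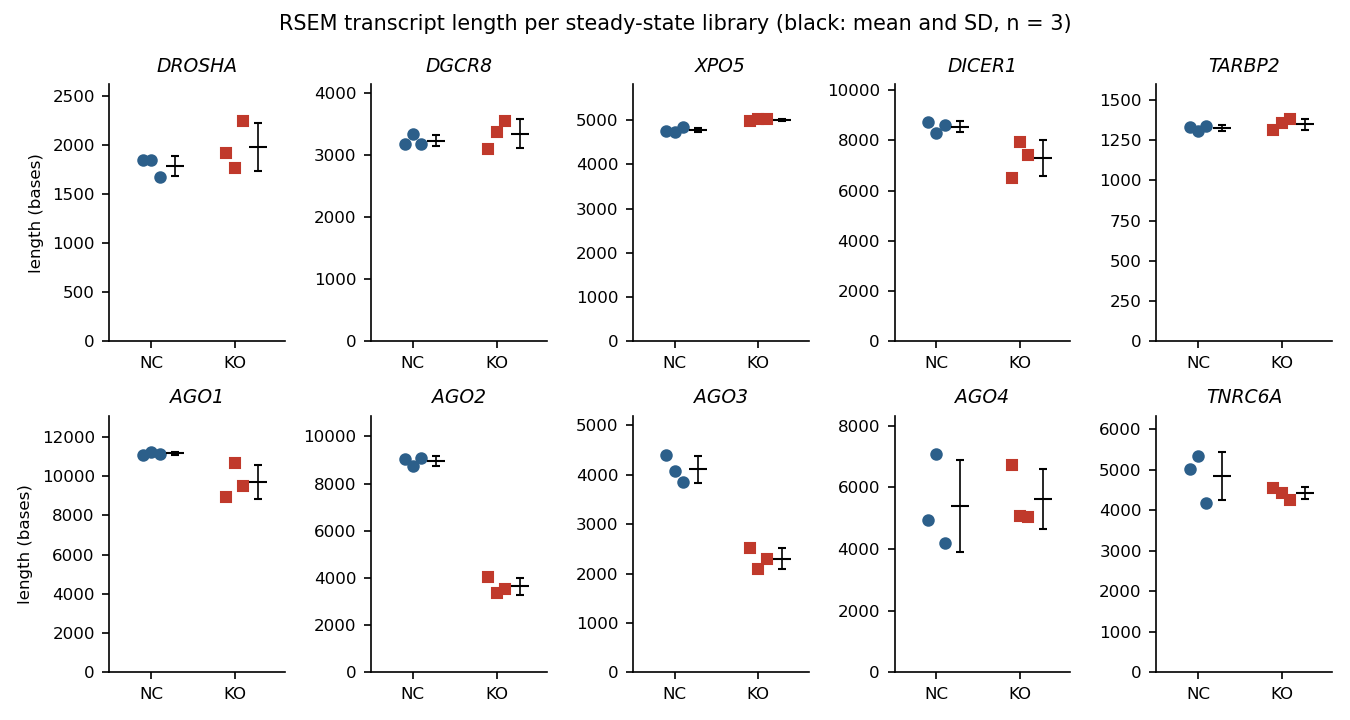
RSEM transcript length in bases of each of the 10 genes in the 6 steady-state libraries (vertical axes from 0), with NC in blue circles, KO in red squares and the mean and SD of each group in black. AGO2 and AGO3 are shorter in every KO library, at 3377 to 4064 and 2089 to 2525 bases, than in any NC library.

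The estimated lengths carry over into the levels per length. With the effective length of each library in the test, a setting chosen after seeing the data, the log2 change of AGO2 was 1.52 and passed, AGO1 passed at 0.32 (edgeR adjusted p = 0.0175) and AGO3 stood at 0.18 and no longer passed (edgeR adjusted p = 0.136). In that setting DICER1 (-1.26), TNRC6A (-0.67) and DROSHA (-0.63) stayed lower. In deposited TPM, which divide by that length, AGO2 stood at 8.61, 9.19 and 9.22 in KO and at 2.49, 2.57 and 2.69 in NC. AGO3 stood at 9.29, 8.32 and 9.15 TPM in KO and at 5.74, 6.51 and 7.05 TPM in NC, the opposite direction to its CPM. For AGO2 and AGO3, the size or direction of the steady-state difference therefore differed between reads per gene and reads per length.

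Per length, TARBP2 was the most abundant member in both steady-state groups (23.3 ± 2.57 TPM in KO, 15.7 ± 1.90 in NC; SD, n = 3), followed by XPO5 (16.6 ± 1.01 and 11.3 ± 0.70). In NC the order went on with DROSHA (8.46 ± 1.02), AGO3 (6.43 ± 0.66) and DICER1 (5.43 ± 0.14 TPM), each separated from the next. The ranges of AGO2 (2.58 ± 0.10) and AGO1 (2.47 ± 0.12), of AGO1 and TNRC6A (2.43 ± 0.64), of TNRC6A and AGO4 (1.52 ± 0.45) and of AGO4 and DGCR8 (1.11 ± 0.02 TPM) overlapped. In KO, AGO2 (9.01 ± 0.34) came next after XPO5, overlapping AGO3 (8.92 ± 0.52), and DICER1 (2.83 ± 1.08 TPM) stood below DROSHA (6.70 ± 1.16) and next to AGO1 (3.80 ± 0.62), which it overlapped. DGCR8 was lowest in both groups, at 1.40 ± 0.30 TPM in KO.

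In the actinomycin D set the pattern of the members was another one: DROSHA was again lower in the KO-labelled libraries, but DICER1, AGO3 and TNRC6A were higher there, as were AGO1 and AGO4. With TMM scaling and averaged over the 5 labelled times, all 10 members passed, 5 as higher and 5 as lower. In edgeR's quasi-likelihood test with Benjamini-Hochberg adjustment over 17715 genes, 83.1% of all genes passed (41.6% higher, 41.6% lower), so this count is close to the background. The median log2 change was 0.21 for the members and -0.01 over all genes. DGCR8, XPO5, TARBP2 and AGO2 are the members whose direction depended on the scaling.

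**Figure D3:**
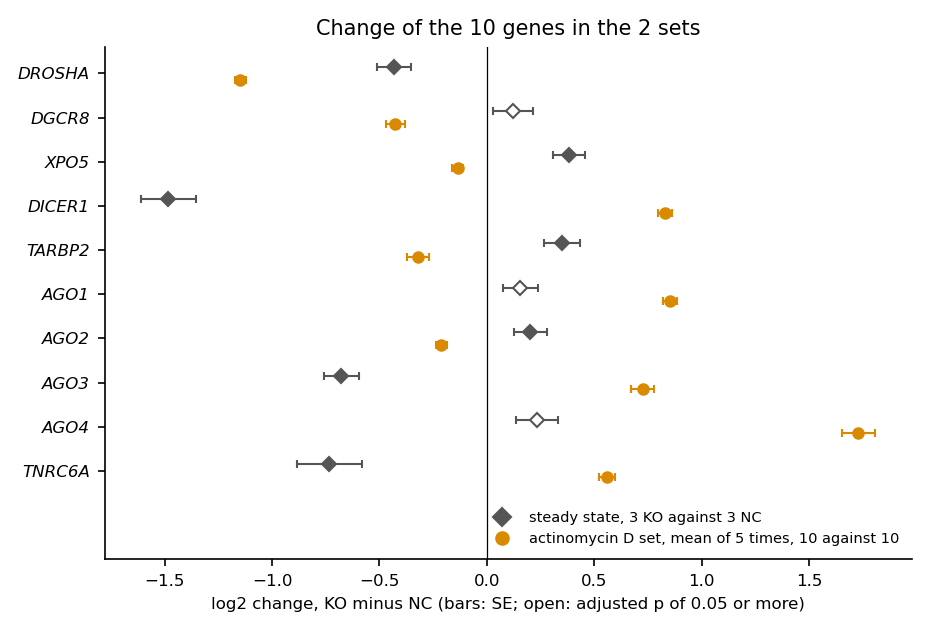
Log2 change of each gene, KO minus NC, in the steady state (grey diamonds, 3 against 3 libraries) and averaged over the labelled times of the actinomycin D set (orange circles, 10 against 10), with SE as bars and open symbols where the edgeR adjusted p was 0.05 or more. DROSHA is below 0 in both sets, and DICER1, AGO3 and TNRC6A are below 0 in the steady state and above 0 in the actinomycin D set.

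The scaling matters in that set because another reference moved all genes. With library sizes set from 84 cytosolic ribosomal protein genes, the median gene shifted to a log2 change of 0.61 at 0 h and 0.47 averaged over times, with 10327 genes higher and 4592 lower against 7366 and 7361 under TMM scaling. On the deposited molecule scale the median gene stood at 0.88 and 0.40, with 7856 higher and 3723 lower averaged over times. Averaged over times, DROSHA was below the median gene and DICER1, AGO1, AGO3, AGO4 and TNRC6A were above it under these 3 references, with unchanged sign. DGCR8, XPO5, TARBP2 and AGO2 were below the median gene under all 3, but above 0 with ribosomal protein gene scaling (0.06, 0.35, 0.17 and 0.28).

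DROSHA was lower in every KO-labelled library. Its lowest, median and highest CPM were 63.9, 72.8 and 83.4 over the 10 KO-labelled libraries and 146, 161 and 178 over the 10 NC-labelled ones. The groups did not overlap, and the log2 change was -1.15 (SE 0.03, edgeR adjusted p = 1.60e-33), or -0.66 with ribosomal protein gene scaling and -0.79 on the molecule scale. DGCR8 had 21.2, 31.5 and 36.2 CPM over the KO-labelled libraries and 32.2, 37.0 and 56.1 CPM over the NC-labelled ones. These ranges overlapped, and the log2 change was -0.43 (SE 0.04, edgeR adjusted p = 2.21e-11), but 0.06 with ribosomal protein gene scaling and -0.03 on the molecule scale, neither of which passed (adjusted p = 0.212 and 0.711).

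XPO5 differed little between the labels. Its lowest, median and highest CPM were 126, 165 and 177 over the KO-labelled libraries and 129, 175 and 203 over the NC-labelled ones, with overlapping ranges. The log2 change was -0.14 (SE 0.02, edgeR adjusted p = 2.32e-06), but 0.35 with ribosomal protein gene scaling and 0.31 on the molecule scale, both of which passed as higher.

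DICER1 was higher under the KO label, opposite to the steady state. Its lowest, median and highest CPM were 82.9, 104 and 126 over the KO-labelled libraries and 38.3, 58.8 and 85.3 over the NC-labelled ones. The ranges met only where the lowest KO-labelled libraries, of 8 h, lay below the highest NC-labelled library, of 4 h. The log2 change was 0.83 (SE 0.03, edgeR adjusted p = 2.01e-25), or 1.32 with ribosomal protein gene scaling and 1.31 on the molecule scale. TARBP2 had 24.1, 28.7 and 30.6 CPM under the KO label and 30.8, 33.0 and 40.8 CPM under the NC label, with no overlap and a log2 change of -0.32 (SE 0.05, edgeR adjusted p = 2.16e-07). It stood at 0.17 with ribosomal protein gene scaling and 0.10 on the molecule scale.

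The 3 neighbouring Argonaute genes of chromosome 1 were higher together under the KO label. AGO4 showed the largest change of all members: 21.8, 25.1 and 31.1 CPM (lowest, median and highest) in the KO-labelled libraries against 5.59, 7.55 and 10.5 CPM in the NC-labelled ones. Its log2 change was 1.73 (SE 0.08, edgeR adjusted p = 2.89e-23). AGO1 had 77.8, 85.4 and 90.8 CPM against 37.7, 48.1 and 54.7 CPM, a log2 change of 0.85 (SE 0.03, edgeR adjusted p = 1.32e-25).

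AGO3 had 36.2, 44.8 and 46.7 CPM in the KO-labelled libraries against 20.7, 26.9 and 34.9 CPM in the NC-labelled ones, a log2 change of 0.73 (SE 0.05, edgeR adjusted p = 2.28e-16). None of the 3 overlapped between the labels. In all, 3 members were higher and 2 lower without overlap between 10 and 10 libraries, while 19.4% and 18.7% of all genes were. With ribosomal protein gene scaling AGO4, AGO1 and AGO3 stood at 2.22, 1.34 and 1.21 on the log2 scale.

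AGO2, on another chromosome, did not move with them. It had 107, 115 and 139 CPM in the KO-labelled libraries and 113, 138 and 199 CPM in the NC-labelled ones, with overlapping ranges and a log2 change of -0.21 (SE 0.02, edgeR adjusted p = 2.58e-10). The direction turned with ribosomal protein gene scaling (0.28) and on the molecule scale (0.20), both of which passed as higher. TNRC6A had 73.4, 84.8 and 125 CPM in the KO-labelled libraries and 45.1, 56.2 and 95.4 CPM in the NC-labelled ones. The ranges overlapped through the 4 h NC-labelled libraries, and the log2 change was 0.56 (SE 0.04, edgeR adjusted p = 1.03e-17), opposite to the steady state.

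At 0 h alone, which is part of the average above and not independent of it, 5 members passed as higher and 3 as lower, against 35.5% and 31.6% of all genes (67.1% in either direction). Without overlap between 2 and 2 libraries, 5 members were higher and 4 lower, against 42.9% and 39.1% of all genes. AGO4 (log2 change 1.54, SE 0.17), DICER1 (0.92, SE 0.07), AGO1 (0.79, SE 0.07), AGO3 (0.76, SE 0.12) and TNRC6A (0.53, SE 0.08) were higher. DROSHA (-1.10, SE 0.06), DGCR8 (-0.29, SE 0.10) and XPO5 (-0.25, SE 0.05) were lower with TMM scaling. The last 2 turned to 0.26 and 0.31 with ribosomal protein gene scaling, and the call of DGCR8 was lost without NC-labelled 0 h replicate 2 (adjusted p = 0.180). AGO2 (-0.08, SE 0.06, edgeR adjusted p = 0.197) and TARBP2 (-0.08, SE 0.11, edgeR adjusted p = 0.539) did not pass, and both stood above 0 and passed with ribosomal protein gene scaling.

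Per length, the Argonautes took different shares of their summed level. In the steady state AGO2 made up 35.3 to 40.5% of the summed AGO1 to AGO4 TPM in the 3 KO libraries and 18.9 to 20.6% in the 3 NC libraries. AGO3 made up 36.7 to 38.2% in KO and 46.9 to 52.1% in NC. In the actinomycin D set, on the authors' RPKM, AGO2 made up 37.9 to 44.4% in the 10 KO-labelled libraries and 55.4 to 72.4% in the 10 NC-labelled ones, and AGO4 made up 15.4 to 19.2% and 5.47 to 9.16%. None of these ranges overlapped between groups, and AGO2's share was higher in KO in the first set and lower in the second. TPM and RPKM use different lengths (the RSEM length of each library and 1 model length per gene), so shares are compared only within a set.

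**Figure D4:**
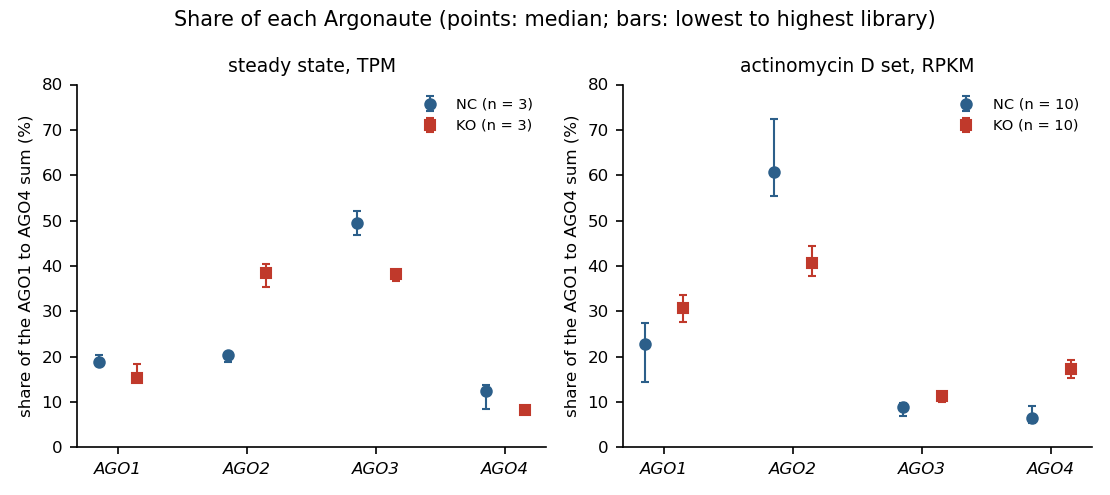
Share of each Argonaute in the summed level of AGO1 to AGO4, in percent (vertical axes from 0), from TPM in the steady state (left) and RPKM in the actinomycin D set (right), with NC in blue circles, KO in red squares, the median as a point and bars from the lowest to the highest library. The share of AGO2 is 35.3 to 40.5% in KO against 18.9 to 20.6% in NC on the left, and 37.9 to 44.4% against 55.4 to 72.4% on the right.

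In RPKM the order of the members in the NC-labelled libraries was led by XPO5 (14.1 ± 1.69; SD, n = 10) and DROSHA (13.4 ± 0.58), whose ranges overlapped, and closed by AGO3 (0.62 ± 0.10) and AGO4 (0.48 ± 0.10), whose ranges also overlapped. In the KO-labelled libraries XPO5 led (13.0 ± 0.72), DROSHA (6.15 ± 0.35) came after TARBP2 (7.49 ± 0.96), which it overlapped, and AGO4 (1.61 ± 0.26 RPKM) stood above AGO3 (1.03 ± 0.11) with no overlap. DICER1 stood at 2.53 ± 0.72 RPKM under the NC label and at 4.48 ± 0.92 under the KO label.

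Labelled time changed most members in CPM, but not in a steady fall. An F test over the 5 times passed for 8 of 10 members under the NC label (54.7% of all genes did) and for 6 of 10 under the KO label (55.9% of all genes did). Under the NC label all but TARBP2 (edgeR adjusted p = 0.0583) and AGO4 (0.257) passed. The call of AGO3 was lost with DESeq2 (adjusted p = 0.0587) and without NC-labelled 8 h replicate 1 (0.144). TARBP2 passed without NC-labelled 2 h replicate 1 (0.0433) or replicate 2 (0.0292), and AGO4 without the latter (0.0430). Under the KO label DROSHA, DGCR8, XPO5, DICER1, AGO2 and TNRC6A passed, while TARBP2, AGO1, AGO3 and AGO4 did not.

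**Figure D5:**
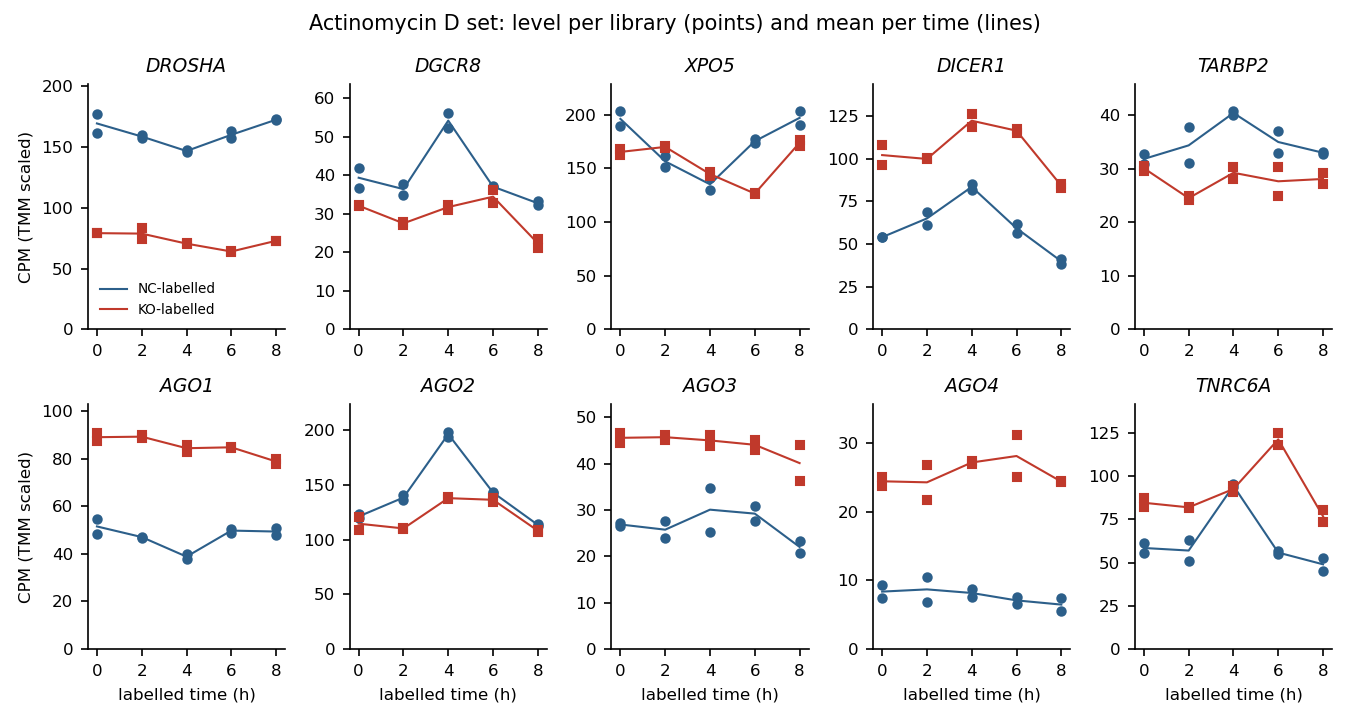
Level of each gene over labelled hours of actinomycin D, as CPM after TMM scaling (vertical axes from 0), with 2 libraries per label and time as points and their mean as a line, NC-labelled in blue and KO-labelled in red. AGO2 peaks at 194 and 199 CPM in the NC-labelled libraries of 4 h, and TNRC6A at 118 and 125 CPM in the KO-labelled libraries of 6 h.

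Under the NC label DGCR8, DICER1, AGO2 and TNRC6A were highest at 4 h. AGO2 went from 119 and 123 CPM at 0 h to 199 and 194 CPM at 4 h and back to 113 and 114 CPM at 8 h under the NC label. Under the KO label it went from 108 and 120.5 CPM to 139 and 137 CPM at 4 h and to 109 and 107 CPM at 8 h. The highest mean of AGO2 was thus 1.62 times its 0 h mean under the NC label and 1.20 times under the KO label.

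TNRC6A peaked at different times under the labels. It went from 55.6 and 61.3 CPM at 0 h to 93.5 and 95.4 CPM at 4 h under the NC label (1.61 times), and from 82.0 and 87.3 CPM at 0 h to 125 and 118 CPM at 6 h under the KO label (1.43 times). DICER1 rose from 54.0 and 53.8 CPM to 81.5 and 85.3 CPM at 4 h under the NC label and fell to 41.4 and 38.3 CPM at 8 h. Under the KO label DICER1 went from 108 and 96.1 CPM at 0 h to 118 and 126 CPM at 4 h.

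XPO5 had the mirror image, a trough. Under the NC label it went from 189 and 203 CPM at 0 h to 129 and 141 CPM at 4 h and back to 203 and 190.4 CPM at 8 h. Under the KO label it was lowest at 6 h, at 127 and 126 CPM against 168 and 163 CPM at 0 h. DROSHA also had its lowest means at these times, 0.87 times the 0 h mean at 4 h (NC label) and 0.81 times at 6 h (KO label).

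The profiles over time differed between the labels for 7 members in a test of that difference, an F test of the time-by-label interaction that was chosen with the data in view. Over all genes 55.3% passed. The 7 were TNRC6A, XPO5, AGO2, DICER1, DGCR8, AGO1 and DROSHA, and the others did not pass (TARBP2 adjusted p = 0.122, AGO3 0.365, AGO4 0.285). The libraries labelled NC 4 h and KO 6 h carried much of the change with time. Without them the NC calls of AGO1 (adjusted p = 0.147), DGCR8 (0.225) and TNRC6A (0.201) and the KO call of DROSHA (0.249) were lost, and TARBP2 passed under the KO label (0.0409), whereas DICER1, XPO5 and AGO2 passed under both labels. Over all genes 6759 of 17191 then passed under the NC label and 7192 under the KO label.

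A straight slope over the 5 times, the direct reading of stability in such a design, was not detectable in CPM. Of 16795 genes, 0 passed in edgeR under the NC label, under the KO label or for the difference of the slopes. At an unadjusted p under 0.05 there were 371, 594 and 486 genes, and DESeq2 called 2, 10 and 6. The unadjusted counts are below those that this threshold gives when no gene has a slope. A straight-line fit puts departures from the line into its spread, so 0 calls do not show that slopes are absent or equal. The members' log2 slopes in CPM lay between -0.05 (AGO4, NC label, SE 0.02) and 0.02 per hour (TNRC6A, KO label, SE 0.04), and the differences KO minus NC between -0.03 (DROSHA, SE 0.02) and 0.06 (AGO4, SE 0.03). CPM are relative to the other genes of each library, so a loss shared by all messenger RNAs is not visible in them.

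On the authors' molecule scale the slopes were negative for all 10 members, from -0.14 (AGO1) to -0.19 (DICER1) per hour under the NC label and from -0.14 (AGO4) to -0.20 (DGCR8) under the KO label. The median gene had -0.15 and -0.17. There 8 members passed under each label (limma, all but AGO2 and TNRC6A), together with 7873 and 8735 of 13949 genes, and the difference between the labels passed for 0 members and 0 genes (355 at an unadjusted p under 0.05). The limit of the straight-line fit given above holds for this difference too. The sources used here do not say what sets this scale.

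Over the 20 actinomycin D libraries the gene with the CPM profile nearest to that of DICER1 among 9741 genes was PPFIA1, a liprin scaffold gene (Pearson r of log2 CPM = 0.985), then CGGBP1 (0.978) and GJC1, a gap junction gene (0.978). After removing the mean of each label these stood at 0.956, 0.931 and 0.929. For AGO2 the nearest were YTHDF3, an m6A reader gene (0.959), WDR33, a factor of 3' end processing (0.954), and EXO1 (0.953), which stood at 0.955, 0.945 and 0.943 after removing the label means. These are descriptions over libraries that share labels, times and depth.

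Other factors of the pathway were taken from lists of known roles, whose counts are to be read against the share of all genes called: 24.4% higher and 26.3% lower in the steady state (50.6% in all), and 41.6% in each direction averaged over the actinomycin D times (83.1% in all). Of 12 partners of the Microprocessor, 3 were higher and 5 lower in the steady state (median log2 change -0.18, against 0.02 over all genes). SRRT, which links capped transcripts to primary microRNA processing, was higher at 0.69 (SE 0.08). HNRNPA2B1, which reads m6A marks on primary microRNAs, was lower at -1.26 (SE 0.10), and HNRNPA1 at -0.84 (SE 0.12).

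Averaged over the actinomycin D times, 2 of the 12 partners were higher and 10 lower (median -0.35). SAFB, which helps the cutting of clustered hairpins, was lowest at -1.17 (SE 0.03), followed by HNRNPA1 at -0.97 (SE 0.02). The helicase gene DDX17 was higher at 0.16 (SE 0.02).

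Of 5 export and dicing partners, 1 was higher and 1 lower in the steady state, and 1 was higher and 2 lower in the actinomycin D set. RAN, whose GTP-bound form loads exportins, was higher at 0.29 (SE 0.06) in the steady state and lower at -0.65 (SE 0.01) in the actinomycin D set. XPO1, which exports some capped precursors, had 186, 142 and 135 CPM in KO and 313, 291 and 336 CPM in NC of the steady state, a log2 change of -1.02 (SE 0.12). It was higher at 0.23 (SE 0.02) in the actinomycin D set, while PRKRA, a partner of DICER1 like TARBP2, was lower there at -0.09 (SE 0.04).

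Of 6 genes that control let-7 precursors, 5 were tested and 3 were lower in the steady state: LIN28B, TUT7 and TUT4. LIN28B, which blocks let-7 maturation, had 13.1, 8.28 and 8.46 CPM in KO and 25.2, 21.0 and 23.3 CPM in NC, a log2 change of -1.23 (SE 0.17). TUT7, which adds uridines to the precursor, stood at -1.11 (SE 0.15), and TUT4, its close relative and named after its values were seen, at -0.80 (SE 0.11). In the actinomycin D set TUT4 was higher under the KO label at 0.86 (SE 0.05), TUT7 lower at -0.46 (SE 0.05) and DIS3L2, which degrades uridylated precursors, lower at -0.23 (SE 0.07). LIN28B, named here after its values were seen, had 0 counts in all 10 NC-labelled actinomycin D libraries (a floor of 3 counts per library) and 93 to 429 counts in the 10 KO-labelled ones.

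Of 10 chaperones that load Argonaute, 4 were higher and 1 lower in the steady state (median 0.24) and 2 higher and 7 lower in the actinomycin D set (median -0.16). The co-chaperone gene STIP1 was higher in both, at 0.56 (SE 0.08) and 0.18 (SE 0.02). FKBP4 was higher (0.55, SE 0.07) and HSPA4 lower (-0.78, SE 0.15) in the steady state. In the actinomycin D set CDC37 was higher (0.16, SE 0.02), and HSP90AA1, the inducible cytosolic HSP90, was lower at -0.94 (SE 0.01), as was FKBP5 at -0.60 (SE 0.03).

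Of 14 effectors of silencing, 3 were higher and 6 lower in the steady state (median -0.18). DDX6, the helicase recruited by the CCR4-NOT complex, stood at 57.6, 40.0 and 34.8 CPM in KO and at 136, 126 and 151 CPM in NC, a log2 change of -1.64 (SE 0.17). CNOT1, the scaffold of that complex, was lower at -0.99 (SE 0.10). MOV10 was higher at 0.60 (SE 0.07) and AJUBA at 0.51 (SE 0.08). TNRC6B, the relative of TNRC6A and named here after its values were seen, was lower in the steady state (-0.44, SE 0.11, edgeR adjusted p = 0.00715) and higher in the actinomycin D set (0.64, SE 0.05), as TNRC6A was.

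Under actinomycin D labels 7 of the 14 effectors were higher and 6 lower (median 0.12). WTIP (1.54, SE 0.07) and PAN2, a deadenylase subunit (1.01, SE 0.05), were higher. CNOT7, a deadenylase of the CCR4-NOT complex (-1.41, SE 0.03), and AJUBA (-1.09, SE 0.03) were lower, the latter opposite to the steady state. The differences between the sets were not tested, since the tables were made and scaled separately.

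Of 10 factors of mature microRNA turnover, 1 was higher and 6 lower in the steady state (median -0.47), and 4 were higher and 6 lower in the actinomycin D set (median -0.32). TENT2, which adds single adenosines to microRNA ends, was lower at -1.30 (SE 0.10) in the steady state and higher at 0.92 (SE 0.04) in the actinomycin D set. ERI1, a 3' to 5' exonuclease, was lower in both, at -0.63 (SE 0.14) and -1.29 (SE 0.04). TUT1 was higher in the steady state (0.38, SE 0.10), and in the actinomycin D set XRN2 was higher (0.79, SE 0.02) and TENT4B lower (-0.81, SE 0.06).

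Of 10 long transcripts that host microRNAs, 8 were tested in the steady state, where 1 was higher and 5 lower (median -0.42), and 9 in the actinomycin D set, where 6 were higher and 3 lower (median 0.58). MIR100HG (-0.61, SE 0.14) and MIRLET7BHG (-0.42, SE 0.10), which both host let-7 genes, were lower in the steady state. MIR31HG, the host of miR-31, had 19.7, 34.7 and 42.0 CPM (lowest, median and highest) in the KO-labelled and 2.65, 4.13 and 5.96 CPM in the NC-labelled actinomycin D libraries, a log2 change of 2.88 (SE 0.08). DLEU2, the host of miR-15a and miR-16-1, was higher there at 1.08 (SE 0.09). With the length trend removed in the steady state, 4 Microprocessor partners were higher and 5 lower (median log2 change -0.22). The effectors had 4 and 5 (0.04), export and dicing 2 and 1 (0.03) and let-7 precursor control 0 and 3 (-0.61). The chaperones had 4 and 1 (0.14), turnover 1 and 5 (-0.30) and the hosts 0 and 6 (-0.51). Over all genes 4475 of 17240 were higher and 4173 lower in that fit. With ribosomal protein gene scaling, which moved the median gene by 0.47, the counts of higher and lower genes in the actinomycin D set were 6 and 5 for the Microprocessor partners, 3 and 1 for export and dicing, 4 and 0 for let-7 precursor control, 6 and 2 for the chaperones, 9 and 3 for the effectors, 5 and 4 for turnover and 6 and 3 for the hosts. TUT7 (0.03), DIS3L2 (0.26) and PRKRA (0.39) are among the genes whose sign turned with that scaling.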

How the data were processed

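RNA-seq tables of 26 of the 31 samples were used; 3 miCLIP and 2 PAR-CLIP samples were not analysed here. TRIzol was used to extract RNA and a Hieff NGS Ultima Dual-mode kit to build mRNA libraries, per the labels' protocols. The submitters' processing notes list STAR, RSEM, Bowtie2, deepTools and hg19 with no version or role, and the annotation and strand setting are not given in these sources. Per the file headers, the steady-state tables hold the authors' expected counts, TPM, FPKM and transcript lengths (10.2% of the expected counts were not whole and were rounded), and 45 pseudoautosomal copies were added to their partners. Per the file headers, the actinomycin D tables hold the authors' read counts, RPM, RPKM, log2 RPKM and a signal called molecules, also as log2. In each library the deposited log2 molecule value was a straight line of the deposited log2 RPKM, with a slope of 1.00 to 1.22 depending on the library. Log2 changes on the molecule scale are therefore not in the same unit as those in CPM. The 37 mitochondrial genes had 0 counts in that set.

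Counts were tested with edgeR 4.0.16 (R 4.3.3): filterByExpr, TMM, a robust quasi-likelihood F test and Benjamini-Hochberg adjustment over all genes at 0.05. The steady-state fit used 6 libraries, and the others all 20 actinomycin D libraries with 1 mean per label and time, or with label, hours and their interaction for slopes. SE was derived from F, as |log2 change|/√F. The molecule scale was tested with limma 3.58.1, and DESeq2 1.42.0 was an alternative. Likeness used log2 CPM (prior count 2) of genes with a mean of at least 10 CPM. The tests were checked on simulated counts in which few genes changed, evenly in both directions and with 1 fixed spread. That check does not cover data in which most genes pass or in which the median gene moves with the scaling.

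Members and lists were chosen with earlier results of these data known. Named genes were KHSRP, all members, of each list up to 2 per direction with the largest change that passed at 10 CPM or more, and the 3 nearest genes of DICER1 and AGO2. A gene that this rule names among the Microprocessor partners is not reported here. Libraries of a group differed by a chi-square per degree of freedom of 3.81 to 42.8 (genes with at least 20 counts), so none was counted as a duplicate. Sequences come from RefSeq (GRCh38.p14), where 9 of 10 members had a promoter entry. Intervals and floors cover counting error only.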

Additional observations from a re-analysis of the deposited data

Results flagged for a closer look

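For 7 members the profile over labelled time differed between the KO and NC labels of the actinomycin D set, by edgeR's F test of the interaction adjusted over 17715 genes, of which 55.3% passed. The adjusted p was 8.26e-10 for TNRC6A, 1.07e-08 for XPO5, 1.87e-06 for AGO2, 3.38e-05 for DICER1, 0.000935 for DGCR8, 0.00362 for AGO1 and 0.00685 for DROSHA. TNRC6A was highest at 4 h under the NC label and at 6 h under the KO label, and XPO5 was lowest at these times.

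For 2 members every KO library lay on one side of every NC library in the steady state and on the other side in the actinomycin D set. Over all genes 60% were separated in the steady state and 38.2% in the actinomycin D set. The share of all genes separated in opposite directions was not computed, so these members are not set apart from other genes. TARBP2 had a log2 change of 0.35 in the steady state and -0.32 averaged over times in the actinomycin D set, and AGO3 had -0.68 and 0.73. Other settings end both contrasts in direction: TARBP2 in the actinomycin D set stood at 0.17 with ribosomal protein gene scaling and 0.10 on the molecule scale, and AGO3 in the steady state stood at 0.18 with the effective length of each library and was higher in KO in TPM. These differences between the sets were not tested.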

How the results depend on the processing

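Depth limits AGO4 most, at 106 to 252 counts per NC-labelled actinomycin D library, and 2 libraries per label and time limit the F tests and slopes. Of the members' values with 1 library left out, 889 kept their call or lack of one, 7 lost a call and 4 gained one. The 889 include slopes without a call, some of which changed sign, and F tests, which have no direction. With 1 library of a label and time left, that library was assumed to vary like the other groups. Under the other alternatives for single members, 490 values kept their call or lack of one, 29 gained a call, 11 lost one and 20 turned in sign with a call in either setting. The 490 also include values without a call that changed sign, and F tests.

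The replicate numbers showed no clear pairing of the libraries: libraries with one number had deviations from the group mean that correlated at -0.26 to 0.19 over 3 pairs in the steady state and -0.09 to 0.09 over 90 pairs in the actinomycin D set. With 2 libraries a group in the latter set, both replicate numbers give the same value, so the 90 pairs are not separate values. With the replicate number as a block, 8706 steady-state genes passed (8726 without it), and in the actinomycin D set 11827 at 0 h, 14683 averaged over times, 9600 and 9814 over times under the NC and KO labels and 0 for the slopes. Among the members the block ended only the steady-state call of AGO2.

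With a length trend removed, 6 members were higher in the steady state instead of 3, beside 4475 of 17240 genes instead of 4198. At 0 h, 9 members were higher and 1 lower with ribosomal protein gene scaling and also on the molecule scale. Over all genes, 9375 were then higher and 3105 lower of 17715 with the former and 8825 higher and 1582 lower of 13988 on the latter. Averaged over times, 8 were higher and 1 lower with ribosomal protein gene scaling, beside 10327 and 4592 of 17715 genes. On the molecule scale 7 were higher and 1 lower, beside 7856 and 3723 of 13988 genes. Over times, 5 members passed under the NC label without the libraries NC 4 h and KO 6 h, beside 6759 of 17191 genes. Under the KO label 10 passed with ribosomal protein gene scaling, beside 10966 of 17715 genes. On the molecule scale 10 also passed, beside 12451 of 13988 genes. DESeq2 called 2, 10 and 6 genes for the slopes under the NC label, the KO label and for their difference, against 0, and on the molecule scale 7873 and 8735 genes and 8 members as lower passed under the NC and KO labels. With 1 library left out, 0 to 2, 0 to 1 and 0 to 2 genes passed for these slopes.

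Signs turned as follows. AGO3 stood at 0.18 in the steady state with the effective length of each library. At 0 h, with ribosomal protein gene scaling and on the molecule scale, DGCR8 stood at 0.26 and 0.54, XPO5 at 0.31 and 0.64, TARBP2 at 0.48 and 0.80 and AGO2 at 0.47 and 0.77. Averaged over times XPO5 stood at 0.35 and 0.31, TARBP2 at 0.17 and 0.10, AGO2 at 0.28 and 0.20, and DGCR8 at 0.0634 with ribosomal protein gene scaling. On the molecule scale the slopes per hour of DROSHA (-0.16), XPO5 (-0.16) and TARBP2 (-0.15) under the NC label and of AGO4 (-0.14), AGO2 (-0.16) and TNRC6A (-0.15) under the KO label were negative, the last 2 without passing. The cause of these changes was not tested.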
